A study of Mus musculus with 12 samples.

Results

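The 10 genes described here are pigment cell genes that also mark the intermediate cells of the stria vascularis. They were chosen by name from the 23598 rows of the deposited table, and each of the 10 stood in 1 row. RNA came from mouse cochleae at postnatal day 7, their middle and apical turns only, with 6 or more cochleae pooled for a sample. The 12 samples form 4 groups of 3, given by the sample titles. They are b-catenin-OE and Notch1-KO together (called the double group here), Notch1-KO, b-catenin-OE and Control, where OE stands for overexpression of β-catenin, the effector of Wnt signalling, and KO for knockout of the receptor Notch1. The sources used here do not name the alleles, the Cre driver, any inducing agent, the strain or the genotype of Control. Nor do they state whether each sample had its own animals, so the p-values below reflect the spread of these samples alone, some of which may be technical.

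Melanocytes come from the neural crest and make melanin inside melanosomes. In the cochlea they settle in the stria vascularis, the tissue of the lateral wall that secretes potassium into the endolymph, where they become its intermediate cells. Of the 10 genes, Tyr, Tyrp1 and Dct encode the tyrosinase family enzymes of melanin synthesis. Slc45a2 and Oca2 encode transporters of the melanosome membrane, and Pmel and Mlana encode melanosome proteins, Pmel being the protein of its internal fibrils. Mitf encodes the transcription factor that sets the melanocyte programme, and Kit and Ednrb encode receptors that melanocyte precursors need.

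Levels are given as the authors deposited them, in FPKM, a fragment number scaled to transcript length and to the mapped fragments of the library. Differences between groups are log2 fold changes of FPKM + 0.5 with their standard error (n = 3 per group), which understate the change of low genes, and adjusted p-values are those of limma with Benjamini-Hochberg adjustment over 14581 rows that had at least 0.5 FPKM in at least 3 samples. A gene was called at an adjusted p under 0.05. Of the 10 members, 8 passed the filter on low values. Tyrp1 was below 0.5 FPKM in all 12 samples, and Slc45a2 reached 0.5 FPKM in 2 samples only, so both have values here and no test. Tyr passed with 4 such samples, all in Notch1-KO and b-catenin-OE, and Mlana with 3, so these passed through the groups where they were high. Ranks and counts of members below that include either gene are set in part by this filter and are descriptions only.

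In every group sample 1 stood apart from samples 2 and 3. The log2 differences over 5889 well expressed genes had a robust SD of 0.0756 to 0.133 for sample 2 against sample 3, and of 0.293 to 0.446 for sample 1 against either. What the sample number stands for is not given, so each result is shown for the samples numbered 1 and for samples 2 and 3 apart. Notch1 had 8.62, 5.7 and 5.77 FPKM in the double group and 9.16, 7.63 and 7.56 in Notch1-KO, against 37.6, 15.7 and 16.7 in b-catenin-OE and 24.3, 14.7 and 16.6 in Control, so it was lower in all 6 samples with a knockout label than in all 6 others. Ctnnb1, the gene of b-catenin, had 408, 482 and 472 FPKM in the double group, 383, 382 and 374 in Notch1-KO, 372, 411 and 410 in b-catenin-OE and 435, 369 and 372 in Control. Sample 1 of b-catenin-OE and of the double group lay below Control sample 1, while samples 2 and 3 of both lay above Control samples 2 and 3. The allele behind the b-catenin label is not given, so the gene's level does not check that label, and the groups are named as labelled. Steps of whole fragments in the low values of samples 2 and 3 gave depths of 18800000 to 26800000 fragments, if FPKM was not scaled further. The depth of the 4 samples numbered 1 is unknown.

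In Notch1-KO samples 2 and 3, Dct, Tyr, Slc45a2 and Mlana were at their highest level in the series, and in Notch1-KO sample 1 they were not. Dct, the enzyme that acts on dopachrome, had 0.427, 46.5 and 46.6 FPKM in the 3 Notch1-KO samples, against 0.773, 2.66 and 2.12 FPKM in Control. Sample 1 was the lowest of all 12 samples and samples 2 and 3 were the highest, so the groups overlapped. Tyr, the rate-limiting enzyme, had 0.0381, 5.11 and 5.67 FPKM in Notch1-KO, against 0.102, 0.371 and 0.158 FPKM in Control. The transporter gene Slc45a2 had 0.0825, 1.81 and 1.71 FPKM in Notch1-KO, against 0.0604, 0.119 and 0.0814 FPKM in Control. Mlana had 0.164, 2.26 and 3.35 FPKM in Notch1-KO, against 0.391, 0 and 0.343 FPKM in Control. All 4 genes showed the same pattern of 1 Notch1-KO sample within the range of Control or below it and 2 samples above every sample of the other groups.

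By the means of samples 2 and 3, Notch1-KO stood 19.5-fold above Control in Dct, 20.4-fold in Tyr, 17.6-fold in Slc45a2 and 16.3-fold in Mlana. In bulk RNA a larger number of cells and more RNA per cell cannot be told apart. Slc45a2 has 1 annotated transcript, and its values correspond to about 107 and 89 fragments in Notch1-KO samples 2 and 3, against 6.03 and 5.97 fragments in Control samples 2 and 3. Among the differences of all 14581 tested rows in samples 2 and 3, that of Dct ranked 2 from the top. Tyr ranked 4 and Mlana 8, but both passed the filter through the groups where they were high, so their ranks are no independent result. In the samples numbered 1 the same 4 genes differed by -0.46 in Dct, -0.16 in Tyr, 0.06 in Slc45a2 and -0.42 in Mlana on the log2 scale.

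**Figure D1:**
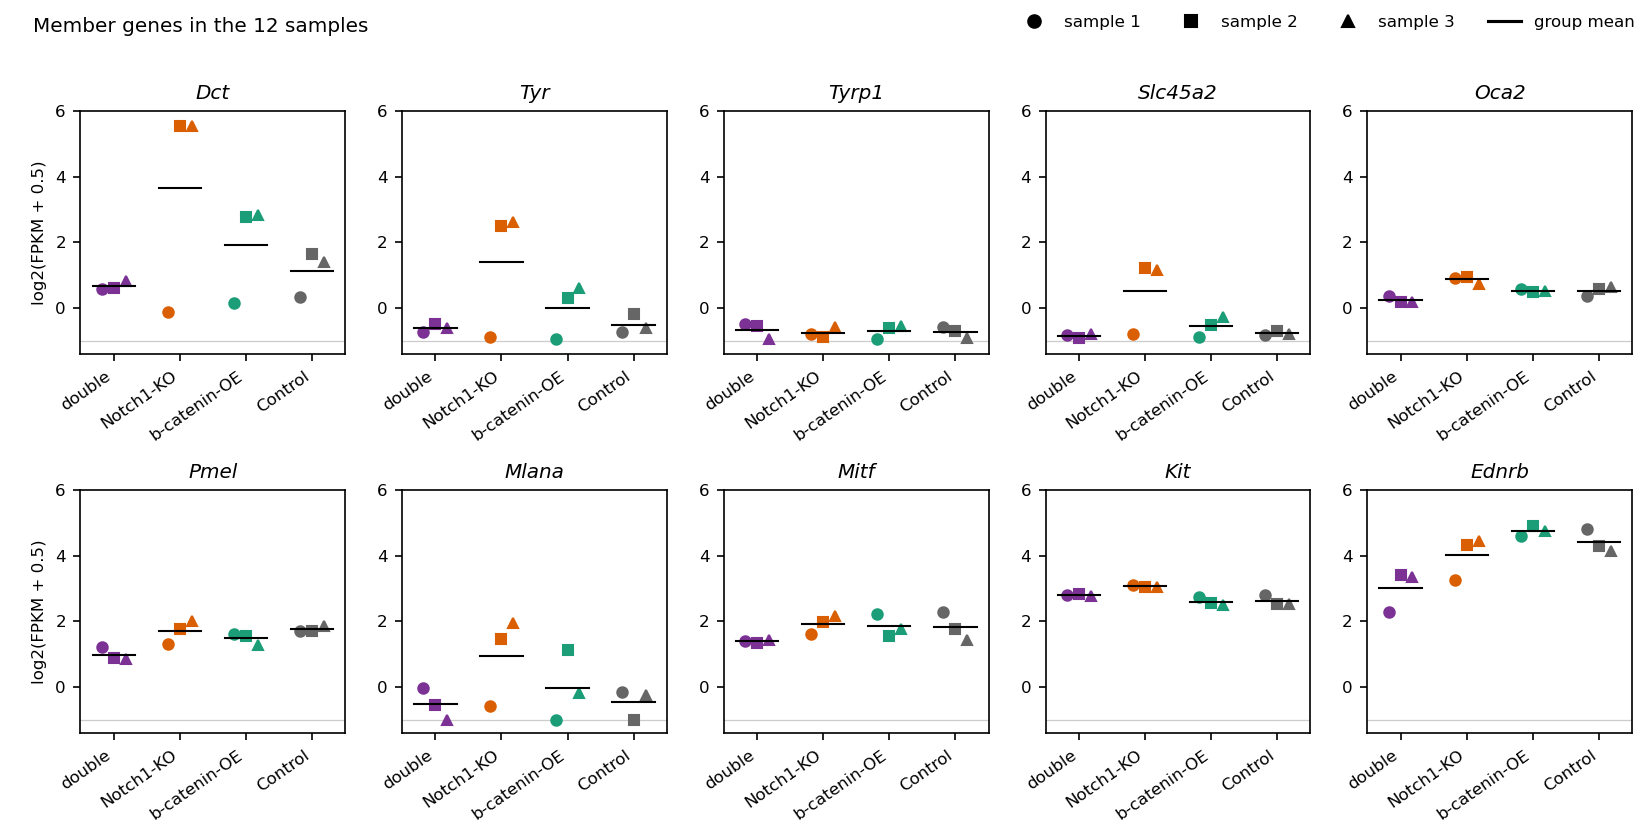
Level of each of the 10 genes as log2(FPKM + 0.5) on the vertical axis, with the 4 groups on the horizontal axis, markers for the sample number and a line at the group mean; the grey line at -1 is a value of 0 FPKM. Dct, Tyr, Slc45a2 and Mlana stand high in Notch1-KO samples 2 and 3 and low in Notch1-KO sample 1, while Tyrp1 is low in all samples and Kit varies little.

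With all 3 samples of a group in the model, no member passed the test in Notch1-KO against Control, where 0.857% of all rows were called by limma (1.63% when the model held sample number as a replicate block). At an unadjusted p under 0.05 there were 3 of the 8 tested members, against 8.27% of all rows. These were Tyr, Oca2 and Kit, and Tyr passed the filter through the groups where it was high. The log2 fold changes were 2.54 ± 1.26 for Dct (adjusted p = 0.671), 1.92 ± 0.76 for Tyr (adjusted p = 0.478) and 1.41 ± 0.64 for Mlana (adjusted p = 0.606). Without Notch1-KO sample 1, Dct (4.42, adjusted p = 0.0336) and Tyr (3.07, adjusted p = 0.0109) passed. Under every other setting that left out at most 1 sample, the adjusted p of both genes stayed above 0.05, and it reached 1 under some. With all 4 samples numbered 1 left out, an alternative chosen after the values were seen, Dct (4.03 ± 0.11, adjusted p = 4.76e-07), Tyr (2.96 ± 0.18, adjusted p = 3e-05), Mlana (2.33 ± 0.42, adjusted p = 0.00888) and Kit (0.50 ± 0.07, adjusted p = 0.00264) were called higher, 4 of 8 tested members, where 11.9% of all rows were called and 6.56% as higher. Those p-values are too small if samples 2 and 3 come from 1 pool, and Tyr and Mlana passed the filter through the groups where they were high. In the authors' deposited table the log2 fold changes of Notch1-KO over Control are 4.08 for Dct and 4.1 for Tyr, both with a p-value of 5e-05, 3.79 for Slc45a2 with a p-value of 0.0001 and 2.97 for Mlana with a p-value of 0.0376. Kit has 0.46 there with a p-value of 0.0181, and Ednrb has -0.36 with a p-value of 0.03925. No other member has a p-value of at most 0.05 in this comparison, and 6.17% of the rows of that table have one.

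Tyrp1, the paralogue of Tyr and Dct that acts late in the making of dark melanin, did not follow them. It had 0.0771, 0.0369 and 0.166 FPKM in Notch1-KO, against 0.167, 0.109 and 0.0298 FPKM in Control, and over all 12 samples it ranged from 0.0189 to 0.209 FPKM. Notch1-KO samples 2 and 3, the highest of the series in Dct and Tyr, lay inside the range of the other samples in Tyrp1. Exons of Tyrp1 (chromosome 4, 80834123 to 80851719 on the plus strand in GENCODE M21, GRCm38) share no base with those of another annotated gene, and neither do those of Dct (chromosome 14, 118012790 to 118052244, minus strand) or Tyr (chromosome 7, 87424771 to 87493512, minus strand).

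The M-box, an E-box with a flanking base that MITF is known to bind in promoters of melanin synthesis genes, stands before the RefSeq start site of all 3 enzyme genes, so the promoter letters are shown beside these unlike levels. The RefSeq promoter table (GRCm38.p6) held 7 of the 10 members. The M-box was searched as TCATGTG on both strands in the 250 bases before each start site. It was present for 3 of these 7 members, Dct, Tyr and Tyrp1. It was in 3.25% of all 32851 promoters of the table, and for 3.72% of its 27025 genes in at least 1 promoter. The shorter E-box inside it, CATGTG, lacks the flanking base and so matches wherever the M-box does. It was present for 4 members, the further one being Oca2, and in 12.3% of all promoters or for 13.8% of all genes. The palindromic E-box CACGTG was in no promoter of the 7 members, and in 6.02% of all promoters or for 6.86% of all genes. Trpm1, a pigment cell gene outside the 10 members, held the M-box in 1 of its promoters. In the stretches below, 5′ to 3′ on the strand of the gene, capitals mark the M-box, which begins 151, 22, 47 and 142 bases before the start site in Dct, Tyr, Tyrp1 and Trpm1, in that order. These positions are counted from the RefSeq start. GENCODE M21 begins Tyrp1 further upstream, so the Tyrp1 stretch lies inside that gene model. Dct holds a further match on the opposite strand, outside the stretch shown. The promoters of Pmel, Mlana and Slc45a2 are not shown.
Dct (chr14:118052351-118052437, minus strand): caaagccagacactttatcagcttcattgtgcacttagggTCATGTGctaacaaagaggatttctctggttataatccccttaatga
Tyr (chr7:87493513-87493574, minus strand): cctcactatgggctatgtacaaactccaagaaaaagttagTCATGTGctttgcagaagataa
Tyrp1 (chr4:80834126-80834212, plus strand): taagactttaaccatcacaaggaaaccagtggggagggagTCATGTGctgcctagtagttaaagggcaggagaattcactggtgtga
Trpm1 (chr7:64153653-64153739, plus strand): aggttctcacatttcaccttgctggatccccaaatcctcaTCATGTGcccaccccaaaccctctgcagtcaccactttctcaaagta
The 4 stretches are shown because they hold the motif. Of the 4 genes, 3 were at their highest level in Notch1-KO samples 2 and 3, and Tyrp1 was not. Gpnmb and Esrrb, described below, were also highest in those 2 samples, and their promoters held no M-box and no CATGTG. A match in these letters is a description and shows no binding.

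In b-catenin-OE the same genes were also above Control in samples 2 and 3, by less. Dct had 0.612, 6.34 and 6.59 FPKM in b-catenin-OE, against 0.773, 2.66 and 2.12 FPKM in Control. Tyr had 0.018, 0.73 and 1.02 FPKM in b-catenin-OE, against 0.102, 0.371 and 0.158 FPKM in Control. Slc45a2 had 0.0369, 0.2 and 0.325 FPKM in b-catenin-OE, against the same Control samples. Sample 1 of b-catenin-OE was the lowest or among the lowest of the series in these genes, and samples 2 and 3 lay above all Control samples and below Notch1-KO samples 2 and 3. By the means of samples 2 and 3 the level was 2.71-fold that of Control in Dct, 3.3-fold in Tyr and 2.62-fold in Slc45a2. Mlana had 0, 1.67 and 0.38 FPKM in b-catenin-OE, so sample 2 lay above all Control samples and sample 3 within their range.

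No member passed the test in b-catenin-OE against Control, where 2.24% of all rows were called by limma (4.35% with the replicate block), and 0 of the 8 tested members had an unadjusted p under 0.05, against 14% of all rows. The log2 fold change was 0.79 ± 1.26 for Dct (adjusted p = 0.892) and 0.49 ± 0.76 for Tyr (adjusted p = 0.883). Without the samples numbered 1, Dct (1.28 ± 0.11, adjusted p = 4.14e-05), Tyr (0.85 ± 0.18, adjusted p = 0.00594) and Ednrb (0.59 ± 0.08, adjusted p = 0.000576) were called higher, where 39% of all rows were called and 19.3% as higher, and over 20 other settings the adjusted p of these 3 genes was 0.477 to 1. In the authors' deposited table Dct has a log2 fold change of 1.29 with a p-value of 5e-05 and Tyr one of 1.48 with a p-value of 0.00545, where 8.32% of rows have a p-value of at most 0.05.

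**Figure D2:**
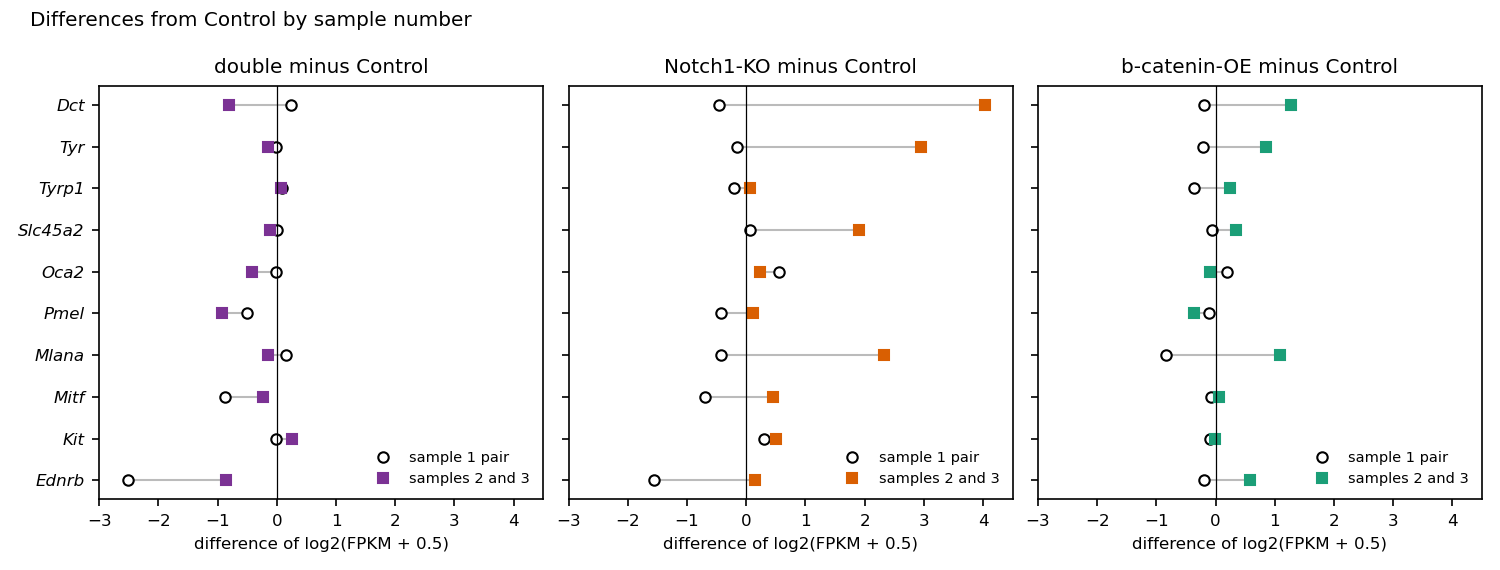
Difference from Control in log2(FPKM + 0.5) on the horizontal axis for each of the 10 genes on the vertical axis, with open circles for the samples numbered 1 and filled squares for the means of samples 2 and 3, in the double group (left), Notch1-KO (middle) and b-catenin-OE (right). Dct in Notch1-KO is at -0.46 in sample 1 and at 4.03 in samples 2 and 3, and Ednrb in the double group is at -2.52 and -0.85.

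In the double group, Dct, Tyr and Slc45a2 were at low levels in all 3 samples. Dct had 1, 1.03 and 1.28 FPKM in the double group, against 0.427, 46.5 and 46.6 FPKM in Notch1-KO. Tyr had 0.0953, 0.214 and 0.151 FPKM in the double group, and Slc45a2 0.0619, 0.0299 and 0.0752 FPKM. The double samples lay within a narrow range in Dct, below both Control sample 2 and Control sample 3 and above Control sample 1. By the means of samples 2 and 3, Dct in the double group was 0.483-fold that of Control. With all samples, the log2 fold change of the double group over Notch1-KO was -2.99 ± 1.26 for Dct (adjusted p = 0.181), -2.02 ± 0.76 for Tyr (adjusted p = 0.126) and -1.46 ± 0.64 for Mlana (adjusted p = 0.203). With the replicate block Tyr passed (adjusted p = 0.0455). Without Notch1-KO sample 1, Dct (-4.88, adjusted p = 0.00191), Tyr (-3.17, adjusted p = 0.000908) and Mlana (-2.23, adjusted p = 0.0288) passed, and the highest adjusted p over the alternatives was 0.815, 0.724 and 0.821 for the 3 genes. Without the samples numbered 1, all 8 tested members were called lower in the double group than in Notch1-KO, where 42.4% of all rows were called and 22% as lower. Against Control, Dct, Oca2, Pmel and Ednrb were then called lower and Kit higher in the double group, where 42.1% of all rows were called. Against b-catenin-OE, Dct, Tyr, Pmel and Ednrb were then called lower and Kit higher, where 29.4% of all rows were called. In the authors' deposited table the log2 fold changes of the double group over Control are -1.41 for Ednrb with a p-value of 5e-05, -0.59 for Mitf with a p-value of 0.0166, -0.75 for Dct with a p-value of 0.0394 and -0.96 for Pmel with a p-value of 0.197. Oca2 and Kit have a p-value of 0.22 and 0.365 in the authors' deposited table, where 15.5% of rows have one of at most 0.05. For Tyr, Tyrp1, Slc45a2 and Mlana the entry there may stand for a test that was not made.

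Whether the 2 changes combine additively was asked of the same model, a test added after the values were seen. The non-additive part, double plus Control minus both single groups, was -3.78 ± 1.78 for Dct (adjusted p = 0.623), -2.52 ± 1.07 for Tyr (adjusted p = 0.548) and -0.62 ± 0.21 for Oca2 (adjusted p = 0.373), and 0 of the 8 tested members passed limma's test. Of these 8, Tyr, Oca2 and Ednrb (-1.32 ± 0.49) had an unadjusted p under 0.05, against 8.41% of all rows. Of all rows 0.0206% were called.

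Oca2 and Pmel, a transporter gene and the gene of the fibril protein, moved on a smaller scale than Dct and followed it only in part. Oca2 had 0.791, 0.626 and 0.644 FPKM in the double group, 1.39, 1.44 and 1.16 FPKM in Notch1-KO, 0.992, 0.898 and 0.927 FPKM in b-catenin-OE and 0.796, 0.979 and 1.06 FPKM in Control. All Notch1-KO samples lay above all Control samples, and all double samples lay below all samples of each other group. Oca2 fell in the double group against Notch1-KO (-0.62 ± 0.15, adjusted p = 0.0182). It was 1 of 2 members called in that comparison, with Pmel, where limma called 10.1% of all rows, and 5.21% as lower (15.7% in both directions with the replicate block). That call ended with samples 2 and 3 averaged (adjusted p = 0.382), without double sample 2 (adjusted p = 0.0794), without double sample 3 (adjusted p = 0.0725), without Notch1-KO sample 1 (adjusted p = 0.0516) and without Notch1-KO sample 2 (adjusted p = 0.0851). Against Control the difference of Notch1-KO was 0.34 ± 0.15 (adjusted p = 0.553) and that of the double group -0.28 ± 0.15 (adjusted p = 0.247).

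Pmel had 1.83, 1.34 and 1.31 FPKM in the double group, 1.95, 2.93 and 3.52 FPKM in Notch1-KO, 2.55, 2.46 and 1.93 FPKM in b-catenin-OE and 2.79, 2.76 and 3.15 FPKM in Control. All double samples lay below all samples of the other groups. Pmel and Ednrb were the 2 of 8 tested members called in the double group against Control. There limma called 12.5% of all rows, and 6.64% of all rows as lower (20.1% in both directions with the replicate block). Relative to Control, Pmel fell by 0.78 ± 0.19 on the log2 scale (adjusted p = 0.022), and relative to Notch1-KO by 0.71 ± 0.19 (adjusted p = 0.0389). Groups that did not overlap were found downwards in 4 of the 10 members in the double group against Control, Oca2, Pmel, Mitf and Ednrb, and in 17.5% of all rows. The same 4 genes lay lower without overlap against b-catenin-OE (16.2% of all rows) and Kit lay higher (12.6%). Against Notch1-KO 5 members lay lower, Slc45a2, Oca2, Pmel, Mitf and Kit (18.1% of all rows), and in b-catenin-OE against Control 1 did, Pmel (8.63%). The call of Pmel against Control ended with samples 2 and 3 averaged (adjusted p = 0.299), without double sample 2 (adjusted p = 0.0831) or 3 (adjusted p = 0.0823) and without Control sample 2 (adjusted p = 0.0543) or 3 (adjusted p = 0.075), and the call against Notch1-KO ended under 10 of 20 other settings (highest adjusted p = 0.566). Of the 2292 exonic bases of Pmel (chromosome 10, 128704195 to 128720238), 139 or 6.1% also lie in exons of Cdk2 or Dgka on the opposite strand. Whether reads were assigned by strand is not given, so part of the Pmel value may be reads of its neighbours.

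Mitf, which is known to switch on Dct and Tyr, had a narrower range than either of them. It had 2.15, 2.01 and 2.19 FPKM in the double group, 2.54, 3.4 and 3.96 FPKM in Notch1-KO, 4.12, 2.44 and 2.92 FPKM in b-catenin-OE and 4.4, 2.92 and 2.22 FPKM in Control. All double samples lay below all samples of the other 3 groups, by a small margin from Control sample 3, and the other 3 groups overlapped. Mitf passed in none of the 5 comparisons with all samples. Its difference from Control was -0.45 ± 0.24 in the double group (adjusted p = 0.258) and 0.07 ± 0.24 in Notch1-KO (adjusted p = 0.983). In Notch1-KO against Control it was -0.69 for sample 1 and 0.45 for the other 2 samples, opposite in sign. The table gives 1 value for all Mitf transcripts, of which GENCODE M21 lists 8, so the melanocyte form was not analysed here apart from the others.

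Kit, the receptor of stem cell factor, was at a similar level in all groups and highest in Notch1-KO. It had 6.42, 6.69 and 6.28 FPKM in the double group, 8.19, 7.71 and 7.78 FPKM in Notch1-KO, 6.12, 5.4 and 5.17 FPKM in b-catenin-OE and 6.53, 5.32 and 5.31 FPKM in Control. All 3 Notch1-KO samples lay above all 9 others, sample 1 included, so Kit did not show the split by sample number seen in Dct. The difference of Notch1-KO from Control was 0.44 ± 0.12 (adjusted p = 0.151), and its unadjusted p of 0.00318 was the smallest of the members in that comparison. Groups that did not overlap were found upwards in 2 of the 10 members, Kit and Oca2, and in 7.43% of all rows in this comparison. Group means were 6.46 ± 0.209 FPKM in the double group, 7.89 ± 0.256 in Notch1-KO, 5.56 ± 0.493 in b-catenin-OE and 5.72 ± 0.702 in Control (SD, n = 3), and b-catenin-OE and Control did not differ beyond their spread. Mast cells also carry Kit, and of 11 mast cell and blood genes 2 passed the filter, Hdc and Gata2. Hdc, the histidine decarboxylase gene of mast cells, had 1.3, 0.569 and 0.495 FPKM in the double group, 0.279, 0.278 and 0.169 FPKM in Notch1-KO, 0.195, 0.657 and 0.761 FPKM in b-catenin-OE and 1.7, 0.935 and 0.981 FPKM in Control. All 3 Notch1-KO samples lay below all 3 Control samples in Hdc, a difference of -1.18 ± 0.29 (adjusted p = 0.104) and opposite in sign to that of Kit. Gata2 had 140, 105 and 98.1 FPKM in Notch1-KO, against 100, 90.9 and 92.9 FPKM in Control. Its difference was 0.26 ± 0.22 (adjusted p = 0.884), of the same sign as that of Kit. The part of mast cells in the Kit values was not tested. The mast cell genes Cpa3, Cma1, Mcpt4 and Tpsb2 were at or below 0.44 FPKM in every sample, and Fcer1a was listed at 0 in all.

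Ednrb, the gene of endothelin receptor B, had, with all samples in the model, the largest called fall among the members. It had 4.37, 10.1 and 9.72 FPKM in the double group, 9.08, 19.6 and 21.2 FPKM in Notch1-KO, 23.9, 29.4 and 26.2 FPKM in b-catenin-OE and 27.5, 19.3 and 17.3 FPKM in Control. All double samples lay below all samples of Control and of b-catenin-OE, and sample 1 was the lowest of its group in the double group and in Notch1-KO. With all samples, Ednrb in the double group fell by 1.41 ± 0.34 relative to Control (adjusted p = 0.02) and by 1.74 ± 0.34 relative to b-catenin-OE (adjusted p = 0.0238). It was the 1 member called against b-catenin-OE, where limma called 2.72% of all rows and 1.5% as lower (5.66% in both directions with the replicate block). The first call ended without double sample 1 (adjusted p = 0.0658), without Control sample 1 (adjusted p = 0.0643), with no filter on low values (adjusted p = 0.0665) and with samples 2 and 3 averaged (adjusted p = 0.128). The second ended under 7 of 20 other settings, among them leaving out double sample 1, 2 or 3 or b-catenin-OE sample 2 or 3 (adjusted p = 0.0514 to 0.0803, and up to 0.361 over all of them). Against Notch1-KO the difference of the double group was -1.0 ± 0.34 (adjusted p = 0.0983), with values of -0.98 for sample 1 and -1.01 for the other 2 samples.

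Sox10, the transcription factor of the neural crest line that Schwann cells share with melanocytes, had 116, 89.4 and 84 FPKM in the double group, 106, 80.7 and 77.2 FPKM in Notch1-KO, 88.6, 76 and 78.5 FPKM in b-catenin-OE and 71.5, 70.1 and 85.1 FPKM in Control. It passed in none of the 3 comparisons with Control. Ednrb is also known in glia, and the summed level of 14 Schwann cell and glial genes was 625, 781 and 753 FPKM in the double group, 822, 1170 and 1170 FPKM in Notch1-KO, 1930, 1850 and 1860 FPKM in b-catenin-OE and 3270, 763 and 787 FPKM in Control. Control sample 1 stood apart with the highest sum. By the means of samples 2 and 3, Ednrb in the double group was 0.54-fold that of Control. The 9 bone and cartilage genes also summed highest in Control sample 1, with 1410, 908 and 885 FPKM in the double group and 2530, 988 and 1110 FPKM in Control. The part of these genes in the Ednrb difference was not tested.

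Among 20 further pigment cell genes, 19 were in the table and 14 passed the filter. None passed the test in Notch1-KO or in b-catenin-OE against Control with all samples. In that order, 4 and 2 of the 14 had an unadjusted p under 0.05, against 8.27% and 14% of all rows. The list's median difference in Notch1-KO was 0.06, against -0.01 over all tested rows. In the double group 1 rose and 3 fell against Control, where limma called 12.5% of all rows, and 6.64% as lower. The list's median there was -0.14, against -0.02 over all tested rows. Lef1, a transcription factor of the Wnt pathway, rose (0.43 ± 0.12, adjusted p = 0.04). Bace2 (-1.14 ± 0.22, adjusted p = 0.00593), the gene of a protease that cuts the Pmel protein, fell, as did Cited1 (-1.25 ± 0.32, adjusted p = 0.0259) and Fabp7 (-1.85 ± 0.43, adjusted p = 0.0154). Bace2 had 4.75, 5.36 and 5.7 FPKM in the double group, against 18.9, 9.87 and 9.72 FPKM in Control, so it was lower in all 3 samples, as Pmel was.

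Trpm1 and Gpnmb, a cation channel gene and the gene of a melanosome glycoprotein related to Pmel, had the pattern of Dct. Trpm1 had 0.105, 0.111 and 0.0978 FPKM in the double group, 0.0471, 2.34 and 2.49 FPKM in Notch1-KO, 0, 0.356 and 0.333 FPKM in b-catenin-OE and 0.0708, 0 and 0.0554 FPKM in Control. Gpnmb had 0.427, 0.576 and 0.564 FPKM in the double group, 0.11, 3.56 and 4.05 FPKM in Notch1-KO, 0.163, 0.642 and 0.648 FPKM in b-catenin-OE and 0.11, 0.0761 and 0.188 FPKM in Control. Both were highest in Notch1-KO samples 2 and 3, and both were named here after their values were seen. Unlike Dct, both were also above every Control sample in all 3 double samples. By the means of samples 2 and 3 the level was 4.31-fold that of Control in Gpnmb and 3.76-fold in Trpm1. The Trpm1 values behind this were at most 0.111 FPKM. The difference of Gpnmb in Notch1-KO against Control was 1.85 with all samples (adjusted p = 0.276), and Trpm1 did not pass the filter. Of 16 tested genes for melanosome formation and trafficking, 0 passed limma's test in Notch1-KO or b-catenin-OE against Control. In that order, 0 and 1 had an unadjusted p under 0.05, against 8.27% and 14% of all rows. Hps4, of a complex that guides melanosome cargo, rose in the double group (0.91 ± 0.17, adjusted p = 0.00388).

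Over the 12 samples, the Pearson correlation of log2(FPKM + 0.5) with Dct was 0.99 for Tyr, 0.95 for Slc45a2 and 0.86 for Mlana. It was 0.52 for Pmel, 0.48 for Oca2, 0.41 for Ednrb, 0.31 for Mitf, 0.20 for Kit and 0.07 for Tyrp1. These are descriptions without a test, since 2 Notch1-KO samples set the high values and samples 2 and 3 of a group lie close together. The 10 genes thus fell into 4 that varied together and 6 that followed them less closely or not at all.

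Genes most like the members were ranked by correlation with a score, the mean of standardised values of Dct, Tyr, Pmel, Mlana and Oca2, over 12 samples and among 11771 rows. The score was -0.54, -0.94 and -1.02 in the double group, -0.26, 1.55 and 1.61 in Notch1-KO, -0.43, 0.36 and 0.02 in b-catenin-OE and -0.32, -0.12 and 0.09 in Control. The 8 most alike genes were Esrrb (r = 0.952), Cd55 (r = 0.921), Hpse (r = 0.916), Enpep (r = 0.914), Kcne1 (r = 0.910), Ptgds (r = 0.905), Slc41a3 (r = 0.902) and Bhmt (r = 0.894). Ptgds, the prostaglandin D synthase gene, had 250, 139 and 130 FPKM in the double group, 240, 823 and 776 FPKM in Notch1-KO, 93.7, 248 and 246 FPKM in b-catenin-OE and 141, 284 and 266 FPKM in Control. Hpse, the heparanase gene, had 0.576, 0.476 and 0.481 FPKM in the double group, 0.483, 6.3 and 6.62 FPKM in Notch1-KO, 0.385, 1.11 and 1.1 FPKM in b-catenin-OE and 1.83, 1.03 and 0.805 FPKM in Control. In both genes Notch1-KO samples 2 and 3 were the highest, which the choice by correlation with this score favours.

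**Figure D3:**
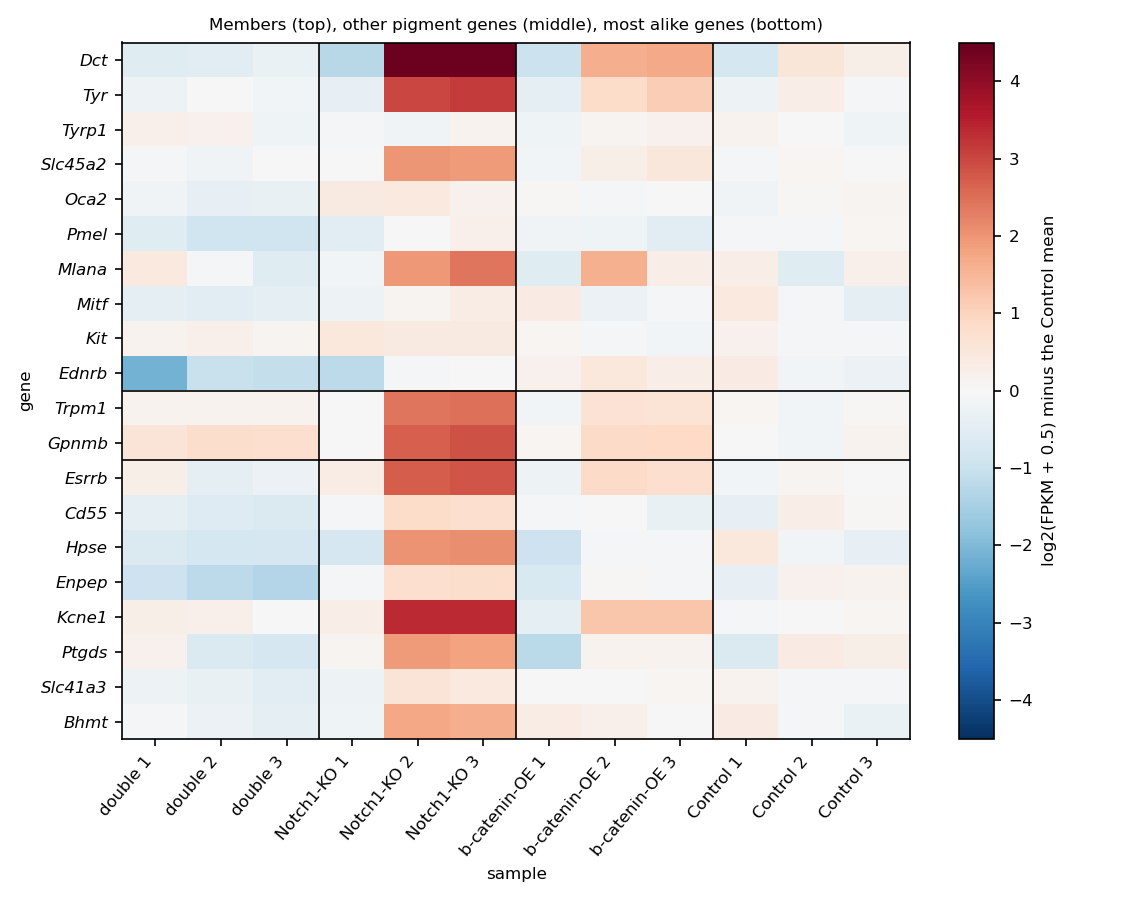
Level of the 10 members (top), 2 other pigment cell genes (middle) and the 8 most alike genes (bottom) in the 12 samples, coloured by log2(FPKM + 0.5) minus the Control mean, with red above and blue below. The red block is in Notch1-KO samples 2 and 3, and the row of Ednrb is blue in the 3 double samples and in Notch1-KO sample 1.

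Esrrb and Kcne1 are genes of strial marginal cells, the epithelial cells that secrete potassium and lie against the intermediate cells. Esrrb, an orphan nuclear receptor gene, had 0.51, 0.147 and 0.212 FPKM in the double group, 0.56, 5.05 and 5.6 FPKM in Notch1-KO, 0.224, 1.06 and 0.93 FPKM in b-catenin-OE and 0.285, 0.418 and 0.351 FPKM in Control. Kcne1, a subunit of the marginal cell potassium channel, had 0.585, 0.563 and 0.406 FPKM in the double group, 0.61, 8.71 and 8.75 FPKM in Notch1-KO, 0.159, 1.65 and 1.65 FPKM in b-catenin-OE and 0.362, 0.385 and 0.464 FPKM in Control. Bsnd, which encodes the chloride channel subunit barttin, had 0.0525, 1.3 and 0.97 FPKM in Notch1-KO, against 0.106, 0.0658 and 0.0903 FPKM in Control. These 3 genes split by sample number as Dct did. By the means of samples 2 and 3 Notch1-KO stood 13.9-fold above Control in Esrrb, 20.5-fold in Kcne1 and 14.6-fold in Bsnd. Bsnd did not pass the filter, and its Control mean in samples 2 and 3 was 0.078 FPKM. For Esrrb and Kcne1, the choice by correlation with the score favours this split.

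Other marginal cell genes differed by less, and not with that split throughout. Slc12a2, the sodium, potassium and chloride cotransporter gene, had 199, 121 and 124 FPKM in Notch1-KO, against 91.1, 68.3 and 64 FPKM in Control, a difference of 0.96 (adjusted p = 0.136) that sample 1 shared. The summed level of the 11 marginal cell genes in the table was 176, 115 and 117 FPKM in the double group, 294, 219 and 221 FPKM in Notch1-KO, 222, 149 and 143 FPKM in b-catenin-OE and 201, 151 and 152 FPKM in Control, so sample 1 was the highest in every group. Slc12a2 and Atp1b2 made up most of this sum in every sample, with 199 and 74.3 FPKM in Notch1-KO sample 1. The sum therefore says little of Esrrb, Kcne1 and Bsnd. Of 10 tested marginal cell genes, 0 passed limma's test in Notch1-KO or b-catenin-OE against Control. In that order, 5 and 2 had an unadjusted p under 0.05, against 8.27% and 14% of all rows. In the double group Stac (2.2 ± 0.48, adjusted p = 0.0109) rose and Atp1b2 (-1.09 ± 0.25, adjusted p = 0.0132) fell against Control. The part of strial tissue taken into each sample in the differences of Dct, Tyr, Slc45a2 and Mlana was not tested.

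**Figure D4:**
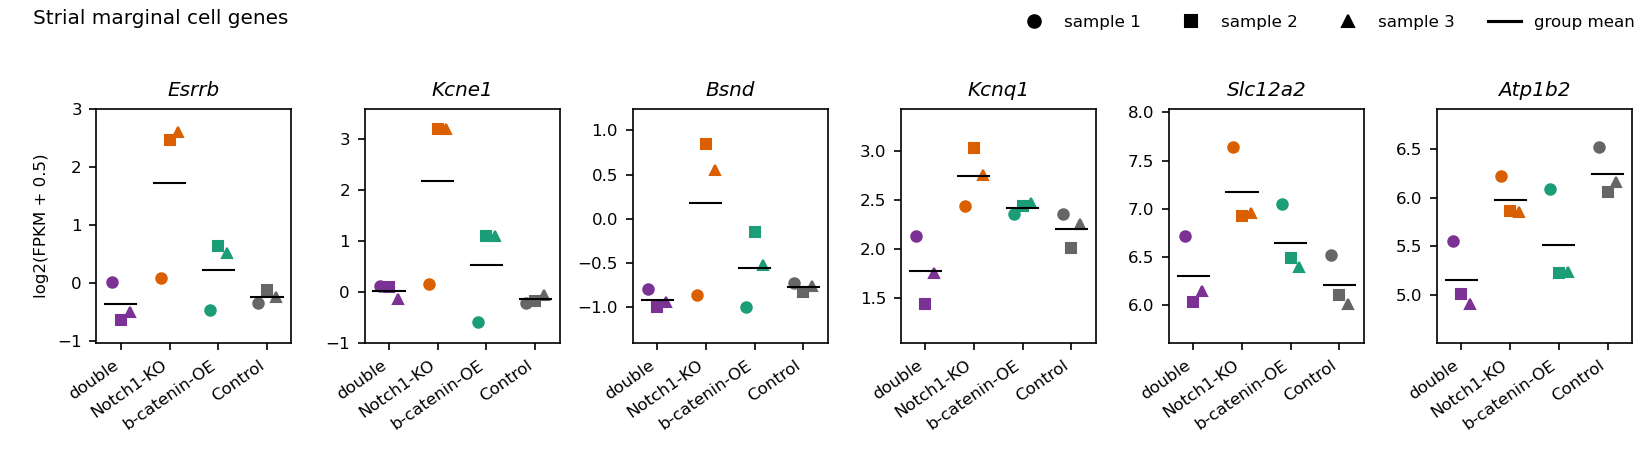
Level of 6 strial marginal cell genes as log2(FPKM + 0.5) on the vertical axis, each panel with its own range, with the 4 groups on the horizontal axis, markers for the sample number and a line at the group mean. Esrrb, Kcne1 and Bsnd are highest in Notch1-KO samples 2 and 3, while Slc12a2 is highest in Notch1-KO sample 1.

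Among ion and metabolite genes of intermediate cells, Ptgds and the potassium channel gene Kcnj13 were highest in Notch1-KO samples 2 and 3. Kcnj13 had 12.7, 19.2 and 15.7 FPKM in the double group, 24.5, 30.5 and 35.2 FPKM in Notch1-KO, 6.88, 12.5 and 12.5 FPKM in b-catenin-OE and 8.59, 19.8 and 19 FPKM in Control, and its difference of Notch1-KO from Control was 0.98 ± 0.32 (adjusted p = 0.276). Of 8 genes of this list that were tested, 1 rose and 4 fell in the double group against Control. There limma called 12.5% of all rows, and 6.64% as lower. The list median was -0.50, against -0.02 over all tested rows. Kcnj10, the potassium channel gene needed for the endocochlear potential, had 13.4, 18.1 and 18.9 FPKM in the double group, 23, 23.1 and 23.8 FPKM in Notch1-KO, 30.2, 21.8 and 21.9 FPKM in b-catenin-OE and 33.6, 24.3 and 25 FPKM in Control. It fell in the double group (-0.70 ± 0.17, adjusted p = 0.0206), with all 3 samples below all others, and in Notch1-KO samples 2 and 3 it was 0.953-fold that of Control. Nrp2 (-1.08 ± 0.18, adjusted p = 0.00213) and Slc1a3 (-1.06 ± 0.18, adjusted p = 0.00216) also fell in the double group. Gsta4 rose there (0.57 ± 0.15, adjusted p = 0.0264). Slc1a3, a glutamate transporter gene that supporting cells and glia also carry, fell in b-catenin-OE as well (-0.80, adjusted p = 0.0362), and 0 of the 8 passed limma's test in Notch1-KO, where 3 had an unadjusted p under 0.05.

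The ligands of the 2 member receptors went in opposite directions in the double group. Kitl, which encodes the ligand of Kit, had 8.05, 10.8 and 11.8 FPKM in the double group, 5.9, 6.01 and 5.44 FPKM in Notch1-KO, 10, 9.25 and 8.24 FPKM in b-catenin-OE and 7.5, 6.1 and 5.46 FPKM in Control. Edn3, which encodes the ligand of Ednrb in melanocyte precursors, had 2.51, 2.72 and 2.77 FPKM in the double group, 3.76, 4.72 and 4.46 FPKM in Notch1-KO, 2.64, 3.13 and 2.6 FPKM in b-catenin-OE and 3.76, 4.28 and 4.06 FPKM in Control. Every double sample was above every Control sample in Kitl and below every Control sample in Edn3, and b-catenin-OE lay on the same side as the double group in both. Against Control in the double group, Kitl rose (0.64 ± 0.16, adjusted p = 0.0218) and Edn3 fell (-0.52 ± 0.13, adjusted p = 0.0237), as its receptor gene Ednrb did. Ednra, the gene of endothelin receptor A, rose (0.44 ± 0.12, adjusted p = 0.0292). In Notch1-KO against Control the differences were -0.11 for Kitl (adjusted p = 0.955) and 0.08 for Edn3 (adjusted p = 0.958), and 0 of 9 genes of this list passed limma's test or had an unadjusted p under 0.05. In b-catenin-OE 0 of 9 passed by limma, where 4 had an unadjusted p under 0.05, against 14% of all rows.

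Among lists of neighbouring cells, 9 strial basal cell and spiral ligament genes were tested. In Notch1-KO and in b-catenin-OE against Control, 0 of them passed limma's test or had an unadjusted p under 0.05. In the double group 2 fell, where limma called 6.64% of all rows as lower. Of 5 outer sulcus, spindle and root cell genes, Lgr5 rose in b-catenin-OE (2.21 ± 0.15, adjusted p = 2.34e-05) and in the double group (2.62 ± 0.15, adjusted p = 2.15e-06). Slc26a4 (-0.99 ± 0.20, adjusted p = 0.00814) and Anxa1 (-1.36 ± 0.41, adjusted p = 0.0494) fell in the double group. Hair cell genes summed to 305, 334 and 338 FPKM in Notch1-KO, against 238, 199 and 195 FPKM in Control. Pvalb alone had 86.4, 132 and 133 FPKM of that in Notch1-KO and 129, 72 and 70.7 FPKM in Control. Of the 9 hair cell genes, 2 were called higher in Notch1-KO, where 0.857% of all rows were called, and the list's median was 0.91. Supporting cell genes summed to 853, 1180 and 1160 FPKM in the double group and 1670, 1990 and 1970 FPKM in Control. S100a1 alone had 407, 684 and 663 FPKM of that in the double group and 924, 1300 and 1280 FPKM in Control. Of the 9 supporting cell genes, 0 rose and 3 fell in the double group, where 6.64% of all rows were called as lower. The list's median was -0.63, while Sox9 differed by 0.19 and Jag1 by -0.12, so the fall was not shared by all. The part of these differences in cell makeup in the results for the members was not tested.

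The remaining members lie, in the same annotation, at chromosome 15, 11000721 to 11029233 (Slc45a2), chromosome 7, 56239760 to 56536518 (Oca2), chromosome 19, 29697824 to 29708634 (Mlana), chromosome 6, 97807052 to 98021349 (Mitf) and chromosome 5, 75574916 to 75656722 (Kit), all on the plus strand, and at chromosome 14, 103814625 to 103844402 on the minus strand (Ednrb). None of these 6 genes shares an exonic base with another annotated gene.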

How the data were processed

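RNA-seq of 12 samples in 4 groups of 3 was taken from 1 deposited table of 23598 rows, whose values are FPKM made by the authors, with the authors' own log2 fold changes and p-values beside them in the deposited table. Each sample pooled at least 6 cochleae, per the labels. The tools named, per the submitters' processing notes and with no role or order, are TopHat2 2.0.10, Bowtie2 2.2.1, CASAVA 1.8, Cuffdiff, Cufflinks 2.2.1 and Trimmomatic 0.23, and the build is mm10. FPKM carry no counts, so a count test was not run. The 10 members were matched by symbol, and the table's starts, 1 base lower than a browser shows, were raised by 1.

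Rows with at least 0.5 FPKM in at least 3 samples (14581) were fitted as log2(FPKM + 0.5) with limma 3.58.1 in R 4.3.3, using 1 model of 4 group means with trended empirical Bayes, two-sided tests and Benjamini-Hochberg adjustment at 0.05. The test was tried on simulated data first. Alternatives were pseudocounts of 0.1 and 1, no filter, a filter at 1 FPKM, the sample number as a replicate block, samples 2 and 3 averaged, median centring, 2 groups alone and each replicate left out. Leaving out the samples numbered 1 and the test of non-additivity were added after seeing the data. Deviations of same-numbered samples from their group means had r = 0.06 to 0.28 for the double group with b-catenin-OE. In the other 4 comparisons r was 0.19 to 0.47. No such r was computed for samples of different numbers, and sample 1 stood apart in every group. These values therefore cannot show whether the numbers pair the samples. Where whole fragments could be seen in low values of samples 2 and 3, depth was 18800000 to 26800000 fragments; the depth of the samples numbered 1 is unknown, and estimated fragments cover counting error only.

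Members, lists and tests were chosen with earlier results of these data known. All members were named, with up to 3 genes per other list by smallest p against Control, called pigment cell genes, and the 8 rows most correlated with the score; others, among them Sox10, Trpm1, Gpnmb, Bsnd, Kcnj10 and Gsta4, were chosen after their values were seen. Some genes of these lists are not reported here. Promoters were read from the RefSeq table of GRCm38.p6, and positions from GENCODE M21 on GRCm38. No multi-gene row or repeated symbol was a member.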

Additional observations from a re-analysis of the deposited data

How the results depend on the processing

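Counts below run in the order double group against Control, against Notch1-KO and against b-catenin-OE, then Notch1-KO and b-catenin-OE against Control. Members called were 2, 2, 1, 0 and 0 with all samples. They were 1, 1, 0, 0 and 0 with no filter on low values, 0 in all 5 comparisons with samples 2 and 3 averaged, and 2, 1, 1, 0 and 0 with the 2 groups fitted alone. With the samples numbered 1 left out they were 5, 8, 5, 4 and 3, on 2 samples a group. Leaving out 1 replicate gave 1 to 2, 0 to 5, 0 to 1, 0 to 2 and 0 to 0 members. All rows called were 1826, 1476, 396, 125 and 327, and 2934, 2290, 826, 237 and 635 with the replicate block. Averaging samples 2 and 3 left 259, 175, 0, 0 and 10 rows, and leaving out the samples numbered 1 gave 6134, 6189, 4281, 1735 and 5685. Fitting the 2 groups alone gave 228 rows for the double group against b-catenin-OE, 8 for Notch1-KO and 65 for b-catenin-OE against Control. Leaving out 1 replicate gave 1128 to 2498, 790 to 2060, 113 to 1023, 14 to 213 and 126 to 901 rows. The replicate block changed the call of 1 member, Tyr in the double group against Notch1-KO, and of no other. The cause of these changes was not tested, beyond the fewer samples in some fits.

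Of differences that passed no test, some changed sign. In b-catenin-OE against Control, averaging samples 2 and 3 gave 0.05 for Oca2 and -0.01 for Mitf, and leaving out 1 replicate gave -0.08 to 0.06 for Oca2, -0.12 to 0.94 for Mlana, -0.19 to 0.24 for Mitf and -0.10 to 0.06 for Kit. In Notch1-KO against Control, leaving out the samples numbered 1 gave 0.11 for Pmel and 0.15 for Ednrb, averaging gave -0.12 for Mitf, and leaving out 1 replicate gave -0.23 to 0.13 for Pmel and -0.12 to 0.30 for Mitf. For the double group, leaving out 1 replicate gave -0.22 to 0.05 for Tyr and -0.32 to 0.19 for Mlana against Control and -0.99 to 0.07 for Mlana against b-catenin-OE. Over all settings other than leaving out the samples numbered 1, 741 member differences kept their direction and call, 21 changed sign, 31 lost and 7 gained a call. Precision is limited by 3 samples a group, by the split between sample 1 and samples 2 and 3, and by unknown depth in the samples numbered 1.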
